A study of Rattus norvegicus with 12 samples.

Results

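This section describes the alpha and beta globin loci in the rat hippocampus 1 h after corticosterone. The loci are 2 assembled genes of 58341 in the authors' deposited table. They were chosen by position, from the places at which the alpha and beta globin genes lie in the rat assembly rn6, and with their group values and calls already known. The alpha globin entry, XLOC_006973, lies on chromosome 10 at 15589356 to 15603667. The beta globin entry, XLOC_001380, lies on chromosome 1 at 168971265 to 168972714. No entry of the table carries a gene symbol, so the match rests on position alone, and markers of hippocampal cells, red cells and other blood cells were not analysed here.

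The animals were male Sprague-Dawley rats aged 8 weeks, and all 12 had been adrenalectomised, which removes the main source of glucocorticoid. In one group, 6 rats received corticosterone at 300 µg/kg, and in the other 6 received vehicle. Whole hippocampi were taken 1 h later and frozen, and the sources used here do not say whether blood was flushed from the brain first. The labels name the compound in different ways, corticosterone in titles and protocol but cortisone in the source names of the treated rats, and the former is followed. Each group is a single value per assembled gene in the deposited table, in FPKM (fragments scaled for transcript length and sequencing depth), so no SD, SE or per-animal value can be given. The depth of each library is unknown.

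Haemoglobin is a tetramer of alpha and beta chains that carries oxygen in red blood cells. The alpha-like and beta-like genes form separate clusters on different chromosomes, and developing red cells make both chains in balance. Reticulocytes, the youngest circulating red cells, still hold much globin mRNA, and globin transcripts have also been reported in neurons and glia. The glucocorticoid receptor is known for its part in the expansion of red cell precursors under stress. In a piece of bulk tissue, more blood cells and more globin RNA per cell cannot be told apart.

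In the RefSeq gene table of another rat assembly, GRCr8, the order along the alpha cluster is Hba-a3, Hba-a2, Hbq1b, Hba-a1 and Hbz. Hba-a1 to Hba-a3 are alpha-like genes, Hbq1b is a theta-like gene and Hbz encodes the embryonic zeta chain. The alpha globin entry spans 14312 bp, and the stretch from Hba-a2 through Hba-a1 in GRCr8 measures 14290 bp, while the single genes Hba-a2 and Hba-a1 measure 848 and 857 bp. The beta globin entry spans 1450 bp, and in GRCr8 Hbb measures 1412 bp, Hbb-bs 1386 bp, Hbb-b2 1381 bp and Hbbl1 1377 bp, so the span does not settle which beta-like gene the entry holds. Hbb is preceded there by the beta-like genes Hbb-bs, Hbb-b1, Hbbl1 and Hbb-b2 and followed by Hbg1, Hbe2 and Hbe1. The sources used here do not say how fragments from near-identical copies were divided, so the level of any single globin gene is uncertain and each entry is described as a locus.

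The bases before the start of Hba-a2, Hba-a1 and Hbb are shown because both globin entries had higher group values with corticosterone. They also show how alike the alpha copies Hba-a2 and Hba-a1 are there. Shared regulation of the clusters was not tested. Hbb is shown as an example of the beta-like genes, since which of them the beta globin entry holds is not settled. Each window holds the 120 bases before the RefSeq start, 5′ to 3′ on the gene's strand, from GRCr8 and not from the build of the deposited table. Capitals mark matches to any of 5 motifs, each searched on both strands. CCAAT and CACCC are boxes known from globin promoters. The run TATAAA stands for the TATA box. For GATA factors, which drive red cell genes, the run AGATAA was searched. For the glucocorticoid receptor, the half-site AGAACA was searched. The windows lie on the minus strand at chr10:15829139-15829258, chr10:15842581-15842700 and chr1:167663722-167663841.
Hba-a2: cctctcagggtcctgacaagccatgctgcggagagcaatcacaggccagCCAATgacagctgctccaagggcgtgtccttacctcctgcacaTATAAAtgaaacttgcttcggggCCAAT
Hba-a1: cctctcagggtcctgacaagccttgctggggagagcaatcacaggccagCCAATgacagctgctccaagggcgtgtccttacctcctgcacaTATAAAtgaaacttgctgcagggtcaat
Hbb: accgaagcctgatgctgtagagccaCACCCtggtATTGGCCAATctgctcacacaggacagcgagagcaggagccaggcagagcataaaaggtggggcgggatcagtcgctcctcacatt

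Both alpha windows hold CCAAT beginning 71 bases before the start and TATAAA beginning 28 bases before it, and Hba-a2 holds a further CCAAT beginning 5 bases before it. Over the 250 bases before the start, Hba-a2 and Hba-a1 have the same base at 241 positions when compared without gaps. The Hbb window holds CACCC beginning 95 bases before the start, and CCAAT on both strands in adjoining copies, beginning 81 bases before it on the same strand and 86 bases before it on the opposite strand. These motifs are common: among 33469 RefSeq promoters of 300 bases (250 before and 50 after the start), 37.5% held CCAAT, 54.9% CACCC, 14.2% TATAAA, 11.6% AGATAA and 20.7% AGAACA on either strand. Neither AGATAA nor AGAACA occurs in the 300 bases of Hba-a2, Hba-a1 or Hbb. In each of Hbb-bs, Hbb-b1, Hbbl1 and Hbb-b2, AGAACA occurs 2 times, and in Hba-a3 and Hbe1 it occurs 1 time. In those first 4 genes the matches begin at like places, 201 to 204 and 21 to 24 bases before the start. They are thus not counted as separate finds, and the 20.7% counts promoters with any match. A match is only a run of letters, and an absent one says only that those letters are not in that window.

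The alpha globin locus was the more abundant of the pair in both groups. It stood at 93.9 FPKM with vehicle and 143.7 FPKM with corticosterone. The treated value was 1.53-fold the vehicle value, a log2 difference of 0.61 and a gain of 49.8 FPKM. The authors' deposited table gives it a p of 5e-05 and a q of 0.0165. Among all 42839 tested assembled genes it ranked 259th by level with vehicle and 151st with corticosterone.

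The beta globin locus stood at 43.2 FPKM with vehicle and 62.2 FPKM with corticosterone. The treated value was 1.44-fold the vehicle value, a log2 difference of 0.52 and a gain of 18.9 FPKM. The p and q in the authors' deposited table are the same as for alpha globin, 5e-05 and 0.0165. These are the smallest of that table, and 130 entries share this p, so neither globin locus can be placed before the other by significance. By level it ranked 822nd of the tested genes with vehicle and 498th with corticosterone.

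Both globin loci, 2 of 2, were thus called higher with corticosterone at a q of 0.05 or less, where 0.271% of all tested assembled genes were called in that direction. Because the loci were chosen with these values known, the count is a description and carries no test.

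**Figure D1:**
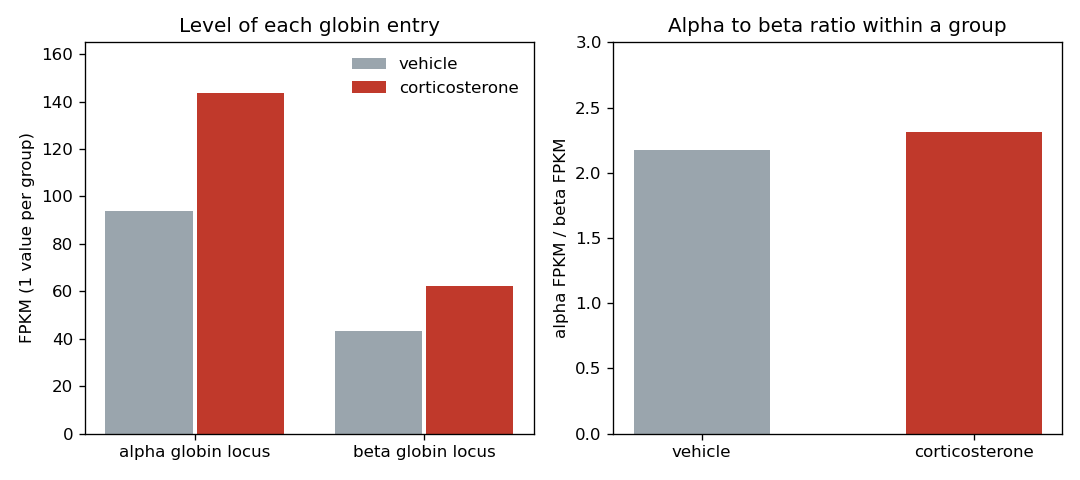
Left, FPKM of the alpha and beta globin entries with vehicle (grey) and corticosterone (red), 1 deposited value per group of 6 rats and so without error bars. Right, the alpha value divided by the beta value within each group, 2.17 with vehicle and 2.31 with corticosterone; both loci are higher with corticosterone while their ratio differs little.

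The alpha and beta loci were compared by their folds and by their ratio within each group. The log2 difference was 0.09 larger for alpha than for beta, which makes the alpha fold 1.06 times the beta fold. Within a group, the alpha entry stood at 2.17 times the beta entry with vehicle and at 2.31 times with corticosterone, on the FPKM scale, which is per length. With a single value per group this difference between the loci could not be tested, and how much of it lies within the spread between animals is unknown. Blood content of the tissue and globin RNA made by hippocampal cells cannot be told apart from the pair of loci, and no other blood gene was analysed here.

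The authors' list of different transcripts holds a transcript at each globin locus, TCONS_00014806 at alpha and TCONS_00005486 at beta. Both carry the higher of its 2 score codes, as do 101 of its 122 transcripts, and no source used here says what the code means. The list comes from the same libraries and the same assembly as the gene values.

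Among the called genes, the globin loci stood high by level and gain, and below the middle by fold. The median tested gene stood at 2.15 FPKM with vehicle and at 2.17 FPKM with corticosterone. Among the 115 genes called higher that had both values above 0, alpha globin ranked 72nd and beta globin 84th by fold, and the median of those genes was 1.74-fold. By gain in FPKM, alpha globin ranked 1st and beta globin 4th of the 116 genes called higher. Among all tested genes, called or not, they ranked 14th and 44th by gain. A gain in FPKM depends on level as well as on fold, so these ranks are not a measure apart from level.

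At their own level, few tested genes had rises of this size, which is a description, since the loci were chosen with these values known. Of 691 tested genes whose mean over the groups reached 50 FPKM, the 2 called higher, 0.289%, were alpha and beta globin. That share is close to the 0.271% over all tested genes, and the floor of 50 FPKM lies just below the beta globin mean of 52.7. The only other call among the 691 was XLOC_045100 on chromosome 6 at 127327603 to 127334442, which fell from 79.0 to 51.9 FPKM. Over all levels 0.0747% of tested genes were called lower. By log2 difference, the globin loci ranked 3rd and 6th of the 691. The genes with a larger value than beta globin, apart from alpha globin, were 4 short entries of 127 to 149 bp, none of them called. XLOC_053551, of 127 bp on chromosome 8, had a vehicle value of 55.4 FPKM and a corticosterone value of 194.8, and the authors' deposited table gives a q of 0.999.

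Genes of like level were also counted for each locus. Within 1.5 times the mean level of alpha globin there were 246 other tested genes, with a median log2 difference of 0.03, and the central 90% lay between -0.09 and 0.17. Of these, 1 had a log2 difference as large as that of alpha globin and 0 were called. Around the level of beta globin there were 764 other tested genes, with a median of 0.03 and a central 90% between -0.08 and 0.15. There, 1 gene had a log2 difference as large as that of beta globin, 0 were called higher and 1 was called lower. Over all tested genes 0.271% were called higher and 0.0747% lower, so these counts of calls among 246 and 764 genes say little.

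**Figure D2:**
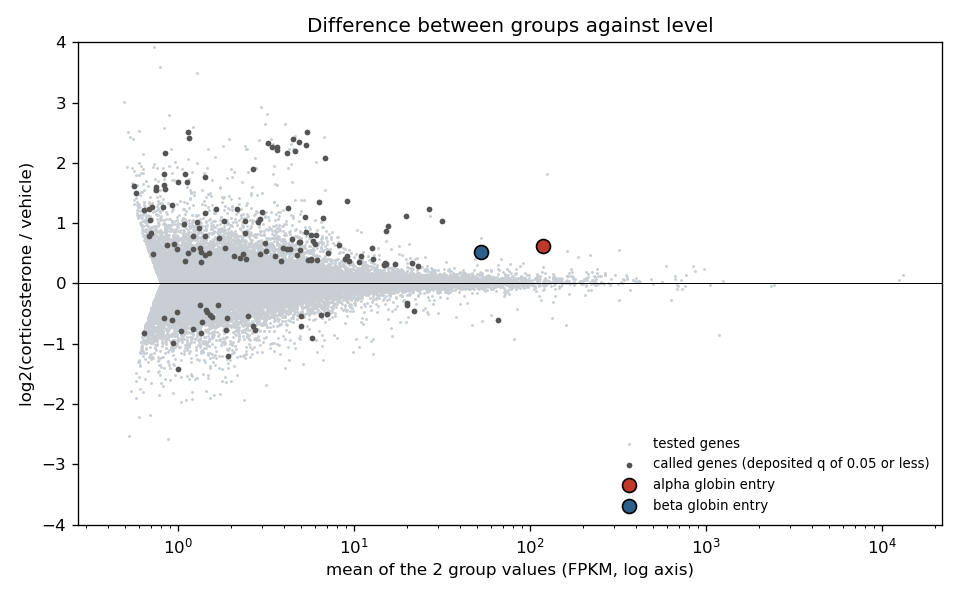
Each point is a tested assembled gene with both values above 0; the x axis is the mean of the group values in FPKM (log axis) and the y axis the log2 ratio of corticosterone to vehicle, and 4 genes lie outside the range shown. The alpha (red) and beta (blue) globin entries lie at 0.61 and 0.52, at the abundant end where most points are close to 0 and called genes (dark grey) are few.

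The 5 tested genes nearest to each globin locus in the values of both groups were not called. With 148 of 42839 tested genes called, the absence of calls among so few genes says little. By the distance between genes in log2 FPKM over the pair of groups, the nearest to alpha globin was XLOC_029754 on chromosome 2 at 131485967 to 131486109, with 108.4 FPKM with vehicle and 130.3 with corticosterone. The 5 nearest genes lay at distances of 0.25 to 0.35. The nearest to beta globin was XLOC_057933 on chromosome X at 104882755 to 104882895, with 41.8 and 55.7 FPKM, and its 5 nearest genes lay at 0.17 to 0.25. These distances rest on 2 group values only.

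None of the tested genes beside the alpha globin locus was called. Over all tested genes 148 of 42839 were called, so a count of 0 among few genes says little. Within 100 kb there were 15 other entries, of which 11 were tested. Their log2 differences ran from -0.34 to 0.18 with a median of 0.09. Of the 11, 7 had higher and 4 lower values with corticosterone, against 51.8% higher among all tested genes, and 0 were called. They are not all separate places, since XLOC_006372, XLOC_006974, XLOC_007905 and XLOC_007906, all higher, share the span 15620866 to 15668019. XLOC_006371, higher, and XLOC_007903, lower, share 15538631 to 15575906. The smallest unadjusted p among the 11 in the authors' deposited table was 0.315. Within 1 Mb there were 59 other tested genes, with log2 differences from -0.57 to 0.58 and a median of 0.03, 34 higher and 25 lower. Of these, 0 were called, and 2 had an unadjusted p of at most 0.05 in the authors' deposited table, the smaller being 0.0113. Over all tested genes, 1253 of 42839 had such a p. The 11 within 100 kb were much less abundant than alpha globin, with means of at most 11.5 FPKM. On the GRCr8 map the genes on either side of the cluster include Luc7l and Nprl3, the latter a housekeeping gene known for holding enhancers of alpha globin in its introns.

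The entries that adjoin the alpha globin locus most closely were sparse or little different. On one side, 4.57 kb away, XLOC_007904 was not tested, at 0.66 FPKM with vehicle and 0.55 with corticosterone. On the other side, 17.2 kb away, the most abundant entry of the span at 15620866 to 15668019, XLOC_006372, had 6.00 FPKM with vehicle and 6.37 with corticosterone. An abundant entry farther off, XLOC_006976 at 15867852 to 15929774 and singled out after its values were seen, had 226.7 FPKM with vehicle and 228.7 with corticosterone.

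The beta globin locus stood alone in the table. The next entries lay 843.4 kb and 460.9 kb away, and within 1 Mb there were 6 entries, of which 4 were tested and 0 called. With 148 of 42839 called over all tested genes, a count of 0 among 4 says little. The log2 differences of the 4 ran from -0.50 to 0.07, 1 higher and 3 lower, with means of at most 3.58 FPKM. The smallest unadjusted p among the 4 in the authors' deposited table was 0.0379. On the GRCr8 map the beta cluster is flanked on both sides by olfactory receptor genes, a family that is silent in most tissues. No separate entry of the table overlapped either globin entry.

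**Figure D3:**
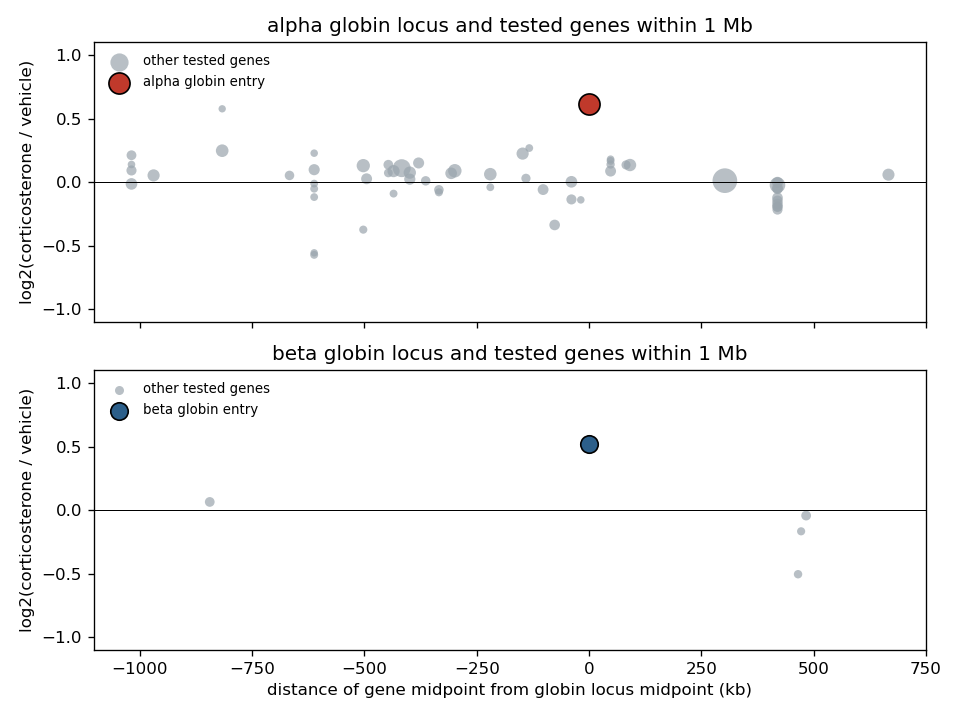
Log2 ratio of corticosterone to vehicle for tested assembled genes within 1 Mb of the alpha (top, 59 other genes) and beta (bottom, 4 other genes) globin loci, against the distance of midpoints in kb; point area grows with the square root of the mean FPKM. The globin entries, at 0.61 and 0.52, lie above every neighbour shown.

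The chromosomes as a whole differed little. The tested genes of chromosome 10 had a median log2 difference of 0.02 over 2506 genes, and those of chromosome 1 had a median of 0.02 over 4625 genes. Over all tested genes with both values above 0 the median was 0.007, and over those whose mean reached 10 FPKM it was 0.03. Relative to the latter median, alpha globin was 0.59 and beta globin 0.50 higher on the log2 scale.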

How the data were processed

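RNA of 12 hippocampi was sequenced, and samples were grouped by their titles (6 corticosterone, 6 vehicle). The submitters' processing notes list Cuffdiff 2.2.1.3, Cufflinks 2.2.1.0, TopHat 0.9 and Bowtie2 0.6, with no settings, and the build rn5; 106 entries on scaffolds with rn6 names place the coordinates in rn6, and they are printed as deposited. Per the file headers, the authors' gene table holds 1 FPKM value per group. Its deposited log2 fold change is vehicle over corticosterone (42836 of 42836 tested entries with values above 0 matched within 0.001), and the sign was turned here. The p-values and q-values are the authors' as deposited, and a call is a q of 0.05 or less. The score in the transcript list was deposited by the authors as a code.

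Of 58341 entries 42839 were tested by the authors; 0 carry a symbol, so lists by symbol were not analysed here. Folds, ratios, ranks and distances were computed with Python 3.11.15 and pandas 2.3.3, and the adjustment was tested on simulated data. No new test was run, since each group is 1 value; the spread between animals and the depth per sample are unknown. Named genes are the globin entries, those within 100 kb and the 5 nearest by log2 distance to each; others were named after their values were seen. The members, lists and alternatives were chosen with earlier results of these data known, and the comparisons with genes of like level were added after the values were seen. Promoters and gene order are from RefSeq tables of GRCr8; all 11 globin symbols searched matched a promoter.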

Additional observations from a re-analysis of the deposited data

How the results depend on the processing

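The log2 differences of alpha globin (0.61) and beta globin (0.52) lay between 0.59 and 0.61 and between 0.50 and 0.52 under pseudocounts of 0.1 and 1 FPKM and under centring on all tested genes or on those with a mean of at least 10 FPKM. Both calls held at a q of 0.10 or less and after adjustment over genes whose mean reached 1 or 10 FPKM (q of 0.0165 and 0.0139). A looser threshold cannot undo a call. Both loci share the smallest p in the authors' deposited table, so adjusting over fewer genes could hardly undo the calls either. At a q of 0.01 or less neither locus was called, with values of 0.61 and 0.52 as before, and 0 genes of the whole table were, because the smallest q in the authors' deposited table is 0.0165; an unadjusted p of 0.05 or less was given to 1253 genes. Over the table there were 148 calls; adjusting again over the 5000 genes whose mean reached 10 FPKM gave 22, of which 21 are among the 148. A pseudocount of 1 moved the alpha to beta ratio to 2.29 with corticosterone and 2.15 with vehicle, and the alpha minus beta difference remained at 0.09. Tested genes near alpha globin numbered 11 within 100 kb, 0 within 10 kb and 59 within 1000 kb; near beta globin there were 0, 0 and 4. No paired analysis was possible because the table holds a single value for all animals of a group, and leaving out animals was not run for the same reason. A pseudocount or a shift of centre is small beside these levels, so the stability under them says nothing about the spread between animals.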
